A study of Caenorhabditis elegans with 2 samples.

Results

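The 72 protein-coding histone genes described here are those that the Ensembl annotation of the worm genome names his-, out of 19973 protein-coding genes on the 6 nuclear chromosomes. They were examined for binding of HMG-4 in Caenorhabditis elegans embryos by chromatin immunoprecipitation and sequencing. The embryos were of strain OP660, which carries the tm4063 allele of unc-119 and the stable transgene wgIs660. The transgene holds hmg-4::TY1::EGFP::3xFLAG, that is, HMG-4 with a tag at its C-terminal end, together with unc-119(+). They were early embryos at 0 hours, of mixed sex, obtained by bleaching, and by the samples' description chromatin was precipitated with an antibody to GFP, whereas the labels' antibody field names hmg-4. There was 1 group, with 2 biological replicates, so the genes were compared with each other and with all protein-coding genes, and no test between groups of samples was possible. Whole embryos were pooled and cell types cannot be told apart, nor can tagged and any untagged HMG-4.

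HMG-4 is a worm homolog of SSRP1, the smaller subunit of FACT, a histone chaperone that takes apart and rebuilds nucleosomes ahead of and behind RNA polymerases and the replication fork. The core histones H2A, H2B, H3 and H4 build the nucleosome and the linker histone H1 binds the DNA that leaves it. In animals, most core histone genes are used while DNA is copied, and their messages end in a stem-loop instead of a poly(A) tail, whereas replacement variants such as H3.3 are made throughout the cell cycle. Many worm histone genes lie in divergent pairs, with the start sites of both genes facing away from a shared stretch of DNA. Those pairs stand in clusters that contain near-identical copies of each other.

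By their protein products the 72 genes comprised 17 genes for H2A, 16 for H2B, 20 for H3, 16 for H4 and 1 for H1, and 2 short genes, his-39 and his-73, were left unclassified. The genes for H3 included 5 for H3.3, namely his-69 to his-72 and his-74. When genes separated by at most 10 kb were joined, there were 19 loci. The 14 loci with more than 1 gene held 67 genes, and the other 5 held the single genes his-24, his-71, his-72, his-73 and his-74. Of the 72 genes, 62 formed 31 divergent pairs: 16 of H2A with H2B, 14 of H3 with H4, and 1 of H2A with H4, his-67/his-68. The 5' ends of a pair were separated by a median of 258 bp, with a range of 227 to 368 bp. In 65 genes the annotated 5' end is the start codon, so the true start sites are not annotated for most of them and distances below are from the start of the annotated gene.

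The stem-loop was found after the stop codon of 61 genes, 31 to 57 bases downstream. It was searched for on the coding strand within 200 bases of the stop codon, as a stem that reads GGNNCT before a loop of 4 bases and AGNNCC after it. It took 3 forms, shown because the stem-loop marks the messages of replication-dependent histone genes, with the stem in capitals and the loop in lower case (RefSeq WBcel235 assembly, the same build as ce11, each read on the plus strand at chrV:8535568-8535583, chrV:8536753-8536768 and chrV:8850872-8850887):
his-5: GGCCCTctttAGGGCC
his-39: GGCCCTctttAGAGCC
his-52: GGCCCTcttaAGGGCC
The form at his-5 occurred in 53 genes and the forms at his-39 and his-52 in 4 genes each. The 11 genes without a match were his-73, his-24, his-37, his-35, his-41, his-47 and the 5 genes for H3.3.

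HMG-4 peaks were present at histone genes of every class, and among the core histones the H4 genes had them most often in the most stringent list. The authors deposited a list of peaks for each replicate, one for both replicates pooled, and one that passed a threshold on the irreproducible discovery rate (IDR), a measure of how well peaks rank alike in replicates. A gene was counted when the summit of a peak lay within 500 bp of its 5' end. In the IDR list 13 of 72 histone genes had a summit (18.1%, 95% exact binomial interval 9.98 to 28.9), compared with 4.38% of all protein-coding genes. In the pooled list 29 did (40.3%), compared with 29.5% of all protein-coding genes. In replicate 1 the count was 25 (34.7%), against 28.2% of all protein-coding genes, and in replicate 2 it was 32 (44.4%), against 31.5%. Both replicates' lists had a summit at 24 histone genes (33.3%), compared with 17.7% of all protein-coding genes. No list had a summit at 38 histone genes. The histone share was thus above the background in every list, by the widest ratio in the IDR list, and it was closest to the background in the lists of 30000 peaks. For those lists no interval was computed, and whether their smaller differences exceed counting error was not tested. The intervals cover counting error over genes only, and genes of a divergent pair can share a peak, so they are not independent counts.

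By class, a summit in the IDR list was found at his-24, the only H1 gene, at 5 of 16 H4 genes (31.2%), 4 of 20 H3 genes (20%), 2 of 17 H2A genes (11.8%) and 1 of 16 H2B genes (6.25%). In the pooled list the counts were 8 for H4 (50%), 9 for H3 (45%), 7 for H2A (41.2%) and 3 for H2B (18.8%). Over all protein-coding genes the shares were 4.38% in the IDR list and 29.5% in the pooled list. H2B was thus below the background in the pooled list, and its IDR share rests on 1 gene. The order from H4 to H2B was the same in both lists, but the exact intervals for the IDR shares overlap, from 11.0 to 58.7 for H4 and from 0.158 to 30.2 for H2B. The classes also differed in how much of their sequence is repeated, with a median of 33.6% unique stretches for H4 and 1.86% for H2B (defined below), and the part of this in the order was not tested.

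**Figure D1:**
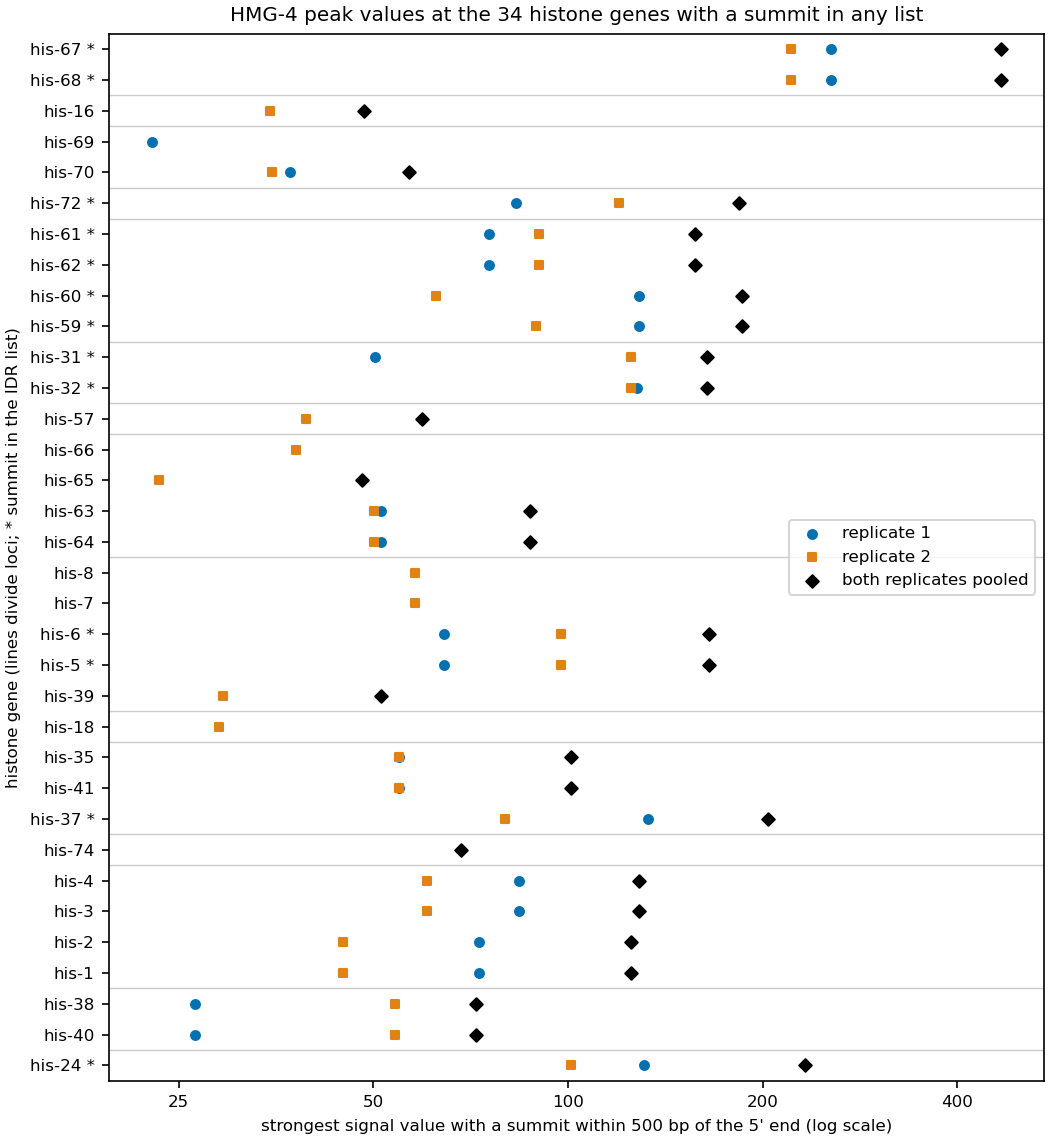
Strongest signal value (log axis), within 500 bp of the 5' end, at each of the 34 histone genes that had a summit in any list, for replicate 1, replicate 2 and both replicates pooled; lines divide loci and asterisks mark the 13 genes with a summit in the IDR list. The pair his-67/his-68 stands apart at 468 in the pooled list, and genes of a pair often share their points because they share a peak.

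The strongest histone peak lay between his-67, an H4 gene, and his-68, an H2A gene, which form a locus of their own on chromosome I (9988452 to 9989515). The peak (9988713 to 9989139) had a signal value of 255 in replicate 1, 221 in replicate 2 and 468 in the pooled list, where it ranked 69 of 30000. The signal value is the authors' own enrichment value for each peak, and here it serves for ranking within one list. The replicates' summits fell 5 and 1 bp from the pooled summit, which was 173 bp upstream of his-67 and 196 bp upstream of his-68, close to the middle between them. A weaker peak of the IDR list had its summit 10 bp inside his-68, with 83.0 in replicate 1, 50.4 in replicate 2 and 139 in the pooled list. Both replicates thus placed the stronger of the peaks between the genes.

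On chromosome V, his-37, an H4 gene without the stem-loop, had a peak (9546926 to 9547035) with its summit 118 bp upstream. The values were 133 in replicate 1, 79.8 in replicate 2 and 204 in the pooled list. It shares a locus with his-35, which codes for H2A, and his-41, which codes for H2B, a divergent pair whose shared peak reached 54.8 in replicate 1, 54.7 in replicate 2 and 101 in the pooled list and was not in the IDR list. Signal values of different lists are not on 1 scale, so ranks were compared: the peak at his-37 ranked 493 in replicate 1 and 1301 in replicate 2, and that of the pair ranked 5012 in replicate 1 and 3306 in replicate 2. By rank, replicate 1 thus had the better place at his-37 and replicate 2 at the pair.

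The second strongest was the peak at his-24, the linker histone gene, alone in its locus on chromosome X (14490094 to 14491119). Its summit lay 112 bp inside the gene, in the first coding exon, and the values were 131 in replicate 1, 101 in replicate 2 and 233 in the pooled list. Replicate summits were 3 and 1 bp away. The non-coding genes M163.16 and M163.19, on the opposite strand, also have 5' ends within 500 bp of this summit, 342 bp and 58 bp from it, so the peak is not particular to his-24 by position. The 50 bases on either side of the summit are given because this peak, unlike that at his-67/his-68, lies within coding sequence (chrX:14490156-14490256, plus strand; the capital marks the summit base):
his-24: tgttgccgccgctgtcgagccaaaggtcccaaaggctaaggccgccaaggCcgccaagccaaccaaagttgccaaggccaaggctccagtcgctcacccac

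The H3.3 gene his-72 on chromosome III had a peak of 184 in the pooled list and 120 in replicate 2, with its summit 241 bp inside the longer annotated transcript, in its first intron. Replicate 1 had no summit within 100 bp of it, and its strongest at the gene was 83.1. The shorter transcript starts 645 bp downstream of the summit, and the snoRNA gene Y49E10.36, which lies in the same intron, starts 265 bp downstream of it. Counted from the shorter transcript, his-72 would not have a summit within 500 bp and the IDR count would be 12. Of the other H3.3 genes, his-74 had a pooled summit of 68.4 with none in either replicate's list, and his-70 had 37.2 in replicate 1, 34.8 in replicate 2 and 56.7 in the pooled list. At his-70 these summits lay 255, 429 and 386 bp downstream of the 5' end, so that of replicate 1 was not within 100 bp of the pooled one. For his-69 there was a summit of 22.7 in replicate 1 only, and his-71 had no summit in any list.

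The other 8 genes of the IDR list were core histone genes in divergent pairs. On chromosome IV the pairs his-61/his-62 and his-60/his-59 form 1 locus of 4 genes (7485834 to 7488659), and each of the 4 had a summit in the IDR list. The peak between his-61, an H2A gene, and his-62, an H2B gene, had 67.9 in replicate 1, 90.1 in replicate 2 and 157 in the pooled list. At his-60 (H4) and his-59 (H3) there were 3 IDR peaks. The one within the coding sequence of his-60, 163 bp from its start, was the strongest, with 186 in the pooled list and 129 in replicate 1, and replicate 2 had no summit within 100 bp of it. The one between the genes had 98.8 in replicate 1, 51.9 in replicate 2 and 150 in the pooled list. The third lay 198 bp inside his-59, with 130 in the pooled list and 73.0 in replicate 1, and again without a summit of replicate 2 within 100 bp. Replicate 2 did have a summit of 62.4 at 265 bp inside his-60. Its strongest summit at the pair, of 89.2, lay 450 bp from the start of his-59, just past the end of that gene, where the pooled list has a peak of 101 that is outside the IDR list. At this pair each replicate thus had a summit within 100 bp of the pooled one between the genes. Of the pooled summits in the coding sequences, only replicate 1 had one within 100 bp. In his-60 the replicates' own summits lay 165 bp inside the gene in replicate 1 and 265 bp in replicate 2.

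Further along chromosome IV, his-31 (H4) and his-32 (H3) shared a peak between them of 50.3 in replicate 1, 125 in replicate 2 and 164 in the pooled list. A further summit 88 bp inside his-32 had 156 in the pooled list and 52.4 in replicate 2. Replicate 1 had no summit within 100 bp of that one, but had one of 128 at 196 bp inside the gene. On chromosome V, his-6 (H3) and his-5 (H4) shared a peak (8534976 to 8535415) of 64.3 in replicate 1, 97.7 in replicate 2 and 165 in the pooled list, with a summit 18 bp before his-5. At both pairs the peak had the better rank in replicate 2, at 415 against 6369 in replicate 1 for his-31/his-32 and at 769 against 3164 for his-6/his-5.

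Over the 24 genes with a summit in both replicates' lists, the strongest peak ranked better within replicate 1's list for 10 and within replicate 2's list for 14. By the signal values themselves replicate 1 was the higher at 16 and replicate 2 at 8, but the lists differ in scale, with a median signal value of 35.2 in replicate 1 and 31.0 in replicate 2. Pearson's r between the replicates' strongest values was 0.832 and Spearman's rho 0.588 over these genes, given as a description, since genes of a pair share values and his-67/his-68 lie far from the rest. Only his-69 had a summit in replicate 1's list and not in replicate 2's, whereas 8 genes had one in replicate 2's list only. The strongest of the 8 were the pair his-8/his-7 on chromosome V, which code for H2B and H2A, with 58.0 in replicate 2 and no summit in the pooled list. Next came his-57 (39.3), his-66 (38) and his-16 (34.6), all in clusters of near-identical copies.

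The 13 genes of the IDR list lay at 12 distinct peaks, 9 of which were counted for 2 genes and 3 for 1. Of the 12 summits, 6 fell outside histone genes, 5 in histone coding sequence and 1 in the intron of his-72. The 29 genes with a pooled summit lay at 36 distinct peaks. The median strongest signal value was 184 over the 13 histone genes and 175 over all protein-coding genes with an IDR summit. By pooled rank the 12 peaks were spread from 69 to 2117, with 5 above the list's median signal value of 176 and 7 below it. The peak between his-4 (H2B) and his-3 (H2A) fell just short of the IDR list, which holds the 2137 strongest pooled peaks: it ranked 2186, with 73.8 in replicate 1, 60.6 in replicate 2 and 129 in the pooled list.

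Clustered histone genes had a lower share of summits than single ones in the IDR and pooled lists, but not in replicate 2's list. Of the 67 clustered genes 11 had an IDR summit (16.4%, interval 8.49 to 27.5) and 26 a pooled one (38.8%). Of the 5 single genes 2 did in the IDR list (40%, interval 5.27 to 85.3) and 3 in the pooled list (60%). Over all protein-coding genes the shares were 4.38% in the IDR list and 29.5% in the pooled list. Counted from the shorter transcript of his-72, 1 single gene would have an IDR summit. The number of single genes is too small for the intervals to separate the groups.

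Among the 62 genes of divergent pairs 10 had an IDR summit (16.1%, interval 8.02 to 27.7), compared with 9.52% of all protein-coding genes that have a divergent neighbour with its 5' end within 1000 bp. Of the 10 histone genes outside such pairs 3 did (30%, interval 6.67 to 65.2), compared with 3.32% of the protein-coding genes outside such pairs. In the pooled list the counts were 23 (37.1%) for paired and 6 (60%) for unpaired histone genes, compared with 29.5% of all protein-coding genes. Whether paired and unpaired histone genes differ in their distance from the background was not tested. Genes with the stem-loop had an IDR summit in 10 of 61 (16.4%) and those without it in 3 of 11 (27.3%), against 4.38% of all protein-coding genes. This order was reversed among the genes with mostly unique sequence, defined below. Of these, 9 of 18 with the stem-loop had an IDR summit (50%, interval 26.0 to 74.0). Without it 3 of 10 did (30%, interval 6.67 to 65.2). Over all mostly unique protein-coding genes the share was 4.48%. The intervals of the mostly unique genes with and without the stem-loop overlap, and the difference was not tested.

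**Figure D2:**
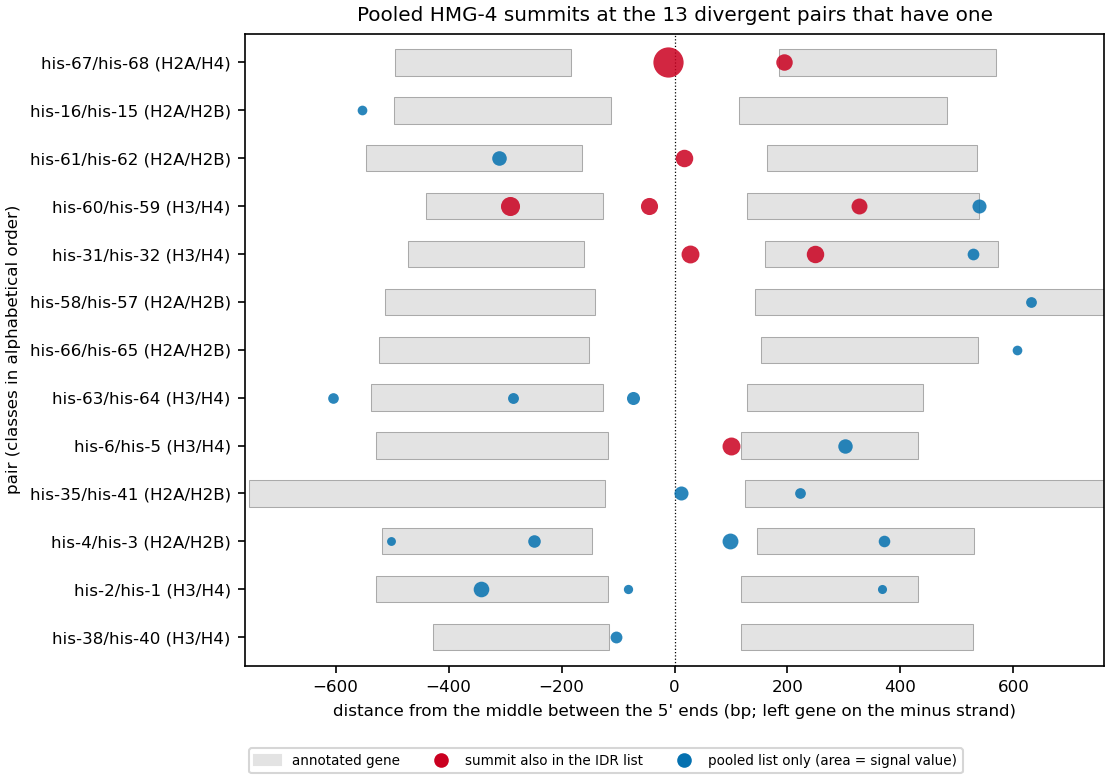
Positions of pooled summits at the 13 of 31 divergent pairs that have one within 500 bp of a 5' end, as distance in bp from the middle between the 5' ends, with the annotated genes as grey bars and the point area proportional to the signal value. Summits of the IDR list (red) lay between the genes at 5 pairs, and further summits fell inside the coding sequence of one partner.

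Within the pairs, the DNA between the 5' ends held a summit in 5 of 31 pairs in the IDR list, compared with 9.49% of all 1696 divergent protein-coding pairs whose 5' ends are at most 1000 bp apart. In the pooled list it did in 10, compared with 30%. By kind, 3 of 14 H3/H4 pairs had an IDR summit between the genes and 1 of 16 H2A/H2B pairs. In the pooled list 6 H3/H4 pairs and 3 H2A/H2B pairs did, and his-67/his-68 did in both lists. Of the 36 pooled summits at histone genes, 16 lay outside the annotated genes and 17 in coding sequence. The strongest IDR summit of a gene lay upstream of its 5' end at 10 of 13 histone genes (76.9%), and at 81.5% of all protein-coding genes with one. In the pooled list it lay upstream at 20 of 29 histone genes (69.0%), against 52.8% of all protein-coding genes. For a paired gene, upstream includes summits within its partner, so the shares of the 2 sets of genes are not fully comparable.

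The stretch between the 5' ends is shown for 5 H3/H4 pairs because they differ in their peaks and little, apart from his-60/his-59, in their sequence. Each is read from the H3 gene towards the H4 gene. They are from the RefSeq WBcel235 assembly at chrV:8534978-8535213 (plus strand), chrIV:7487993-7488248 (minus), chrX:7309876-7310109 (minus), chrV:16042284-16042519 (plus) and chrV:8847705-8847942 (minus). Capitals mark the word ATGTGTCC described below:
his-6/his-5: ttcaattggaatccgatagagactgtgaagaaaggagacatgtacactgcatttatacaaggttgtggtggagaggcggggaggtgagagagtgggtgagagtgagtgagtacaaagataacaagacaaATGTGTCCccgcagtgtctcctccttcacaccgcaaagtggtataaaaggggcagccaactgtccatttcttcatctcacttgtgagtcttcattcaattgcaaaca
his-60/his-59: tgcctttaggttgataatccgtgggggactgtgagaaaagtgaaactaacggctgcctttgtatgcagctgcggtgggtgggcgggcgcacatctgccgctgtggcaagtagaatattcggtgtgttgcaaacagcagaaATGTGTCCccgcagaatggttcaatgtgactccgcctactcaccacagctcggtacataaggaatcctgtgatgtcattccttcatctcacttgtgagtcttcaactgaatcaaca
his-38/his-40: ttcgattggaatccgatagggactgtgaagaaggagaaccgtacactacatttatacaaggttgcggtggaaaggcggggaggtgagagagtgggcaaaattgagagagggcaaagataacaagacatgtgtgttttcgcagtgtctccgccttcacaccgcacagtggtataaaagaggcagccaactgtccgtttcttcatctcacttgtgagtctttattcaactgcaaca
his-2/his-1: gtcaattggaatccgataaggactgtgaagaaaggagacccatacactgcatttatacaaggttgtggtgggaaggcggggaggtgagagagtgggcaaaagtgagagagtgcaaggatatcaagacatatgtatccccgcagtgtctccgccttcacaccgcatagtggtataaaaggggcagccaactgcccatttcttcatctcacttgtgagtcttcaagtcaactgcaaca
his-50/his-49: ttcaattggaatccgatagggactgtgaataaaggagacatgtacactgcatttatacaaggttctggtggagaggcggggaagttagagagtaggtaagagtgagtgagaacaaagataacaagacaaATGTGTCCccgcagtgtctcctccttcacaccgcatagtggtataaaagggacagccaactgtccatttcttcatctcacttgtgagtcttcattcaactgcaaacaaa

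The first of these held the IDR summit of 165 and the next one of 150. The stretch between his-38 and his-40 held a pooled summit of 72.1, with 26.5 in replicate 1. Replicate 2 had no summit in that stretch, and its strongest at the pair, of 54.1, lay 74 bp from the pooled summit, inside his-38. The stretch between his-2 and his-1 held a pooled summit of 44.2, while the strongest at this pair, of 125, lay 225 bp inside his-2. No list had a summit within 500 bp of his-50 or his-49. In a global alignment his-6/his-5 and his-50/his-49 were identical at 225 of 238 columns (94.5%), his-6/his-5 and his-2/his-1 at 89.9%, and his-6/his-5 and his-38/his-40 at 88.1%, whereas his-60/his-59 matched the other 4 at 57.9% to 59.6%. A further pair, his-28/his-27 (chrV:8889800-8890037), has a stretch identical to that of his-50/his-49 and had no summit either. Pairs of nearly the same sequence were thus present among those with an IDR summit and among those with none.

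The pairs differ in how many copies the genome holds. For each gene, every run of 36 bases within 500 bp of the 5' end was looked up on both strands of the 6 nuclear chromosomes, and the percent of runs found at 1 place only was taken as the unique share. The median unique share was 7.61% over the 72 histone genes and 100% over all protein-coding genes, of which 550 (2.75%) were below 50%. Among the histone genes 44 were below 50%, and 25 of them had another histone gene with exactly the same sequence over the whole window. The unique share was 42.4% at his-6, 52.1% at his-5 and 0 at his-50, his-49, his-28 and his-27. A read that matches several places equally cannot be assigned to 1 of them. The treatment of such reads is not given in the sources used, and this division of the genes was chosen after the peaks had been seen.

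HMG-4 summits were found at nearly all histone genes whose surroundings are mostly unique. Of the 28 histone genes with a unique share of at least 50%, 12 had an IDR summit (42.9%, interval 24.5 to 62.8), compared with 4.48% of all protein-coding genes with such a share, and 24 had a pooled summit (85.7%), compared with 30.2%. Both replicates' lists had a summit at 22 of the 28 (78.6%), compared with 17.7% of all protein-coding genes of any unique share. Of the 44 histone genes below 50%, 1 had an IDR summit (2.27%), compared with 0.727% of all protein-coding genes below 50%, and 5 had a pooled summit (11.4%), compared with 3.45%. The 1 gene was his-6, whose partner his-5 is above 50%. None of the 25 genes with an identical window elsewhere had a summit in any of the 4 lists. The unique share moved with the presence of a summit also among the other protein-coding genes, and its part in the missing histone peaks was not tested.

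**Figure D3:**
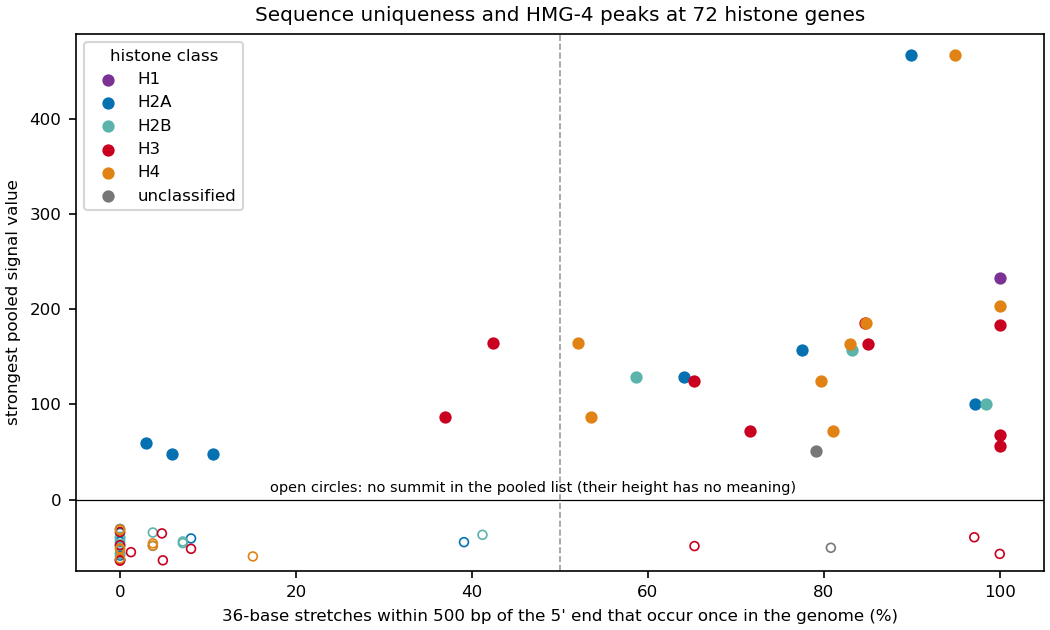
Strongest pooled signal value of each of the 72 histone genes against the percent of 36-base runs within 500 bp of the 5' end that occur at 1 place in the genome, coloured by histone class; open circles are genes with no pooled summit. Of the 28 genes right of the dashed line at 50%, 24 have a pooled summit, and of the 44 left of it 5 do.

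The 4 mostly unique genes without a pooled summit were his-42, which ends the array of 13 genes on chromosome II, the short gene his-73, and the H3.3 genes his-69 and his-71. None of the 4 belongs to a divergent pair. All 18 mostly unique genes in divergent pairs had a pooled summit and a summit in each replicate's list, and 9 of them had an IDR summit (50%, interval 26.0 to 74.0). Among the 10 mostly unique genes outside pairs, 6 had a pooled summit (60%) and 3 an IDR summit (30%). Among mostly unique genes, 10 of 23 clustered ones had an IDR summit (43.5%) and 21 a pooled one (91.3%), and 2 of 5 single ones had an IDR summit (40%) and 3 a pooled one (60%). Over all mostly unique protein-coding genes the shares were 4.48% in the IDR list and 30.2% in the pooled list. The IDR share was 9.52% over all protein-coding genes in divergent pairs. For the replicates' lists, the background was computed over all protein-coding genes only, at 28.2% in replicate 1 and 31.5% in replicate 2. Among mostly unique histone genes, then, the clustered share was not the lower in the IDR and pooled lists, although in these lists it was over all 72 genes. With 5 single genes the difference was not tested.

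By class, all 8 mostly unique H4 genes, all 4 H2A genes and all 3 H2B genes had a pooled summit, and so did 7 of the 10 H3 genes (70.0%). IDR summits were at 5 of the 8 H4 genes (62.5%), 2 of 4 H2A genes (50%), 1 of 3 H2B genes (33.3%) and 3 of 10 H3 genes (30%). Over all mostly unique protein-coding genes the shares were 30.2% in the pooled list and 4.48% in the IDR list. The low pooled share of H2B over all its 16 genes was therefore not seen among its mostly unique genes, which are only 3.

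**Figure D4:**
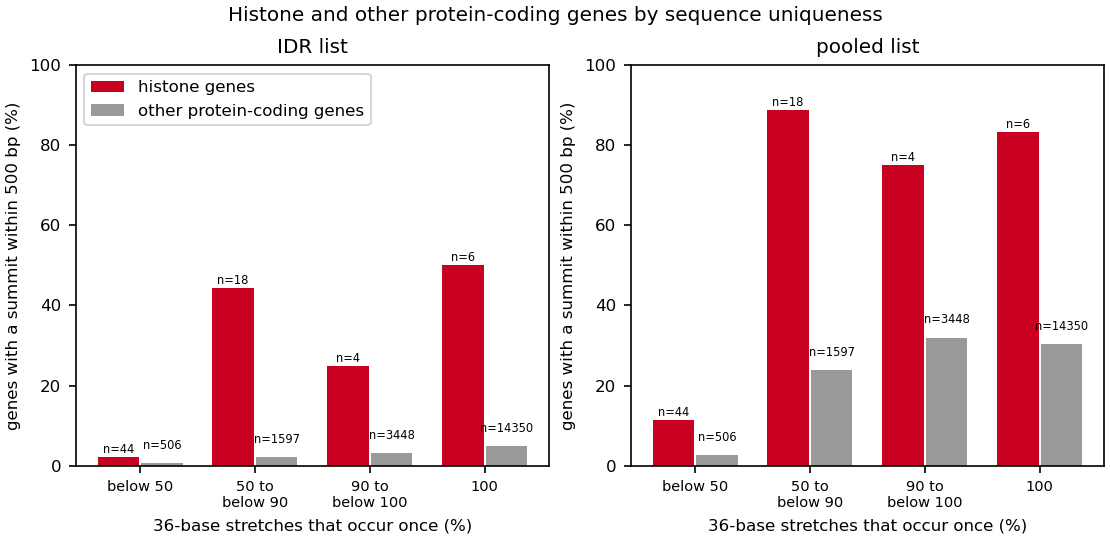
Percent of histone genes (red) and other protein-coding genes (grey) that had a summit no more than 500 bp from the 5' end, in the IDR list (left) and the pooled list (right), by the percent of 36-base runs that occur at 1 place. In each bin the histone share is higher, and the bin from 50 to below 90 holds 18 histone genes, of which 88.9% have a pooled summit. Below 50 and from 90 to below 100 the IDR share of the histone genes rests on 1 gene.

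Within bins of the unique share the histone genes were above the other protein-coding genes each time. From 50 to below 90%, 8 of 18 histone genes had an IDR summit (44.4%), against 2.19% of 1597 other genes, and 16 had a pooled one (88.9%), against 23.9%. Of the 6 fully unique histone genes 3 had an IDR summit (50%) and 5 a pooled one (83.3%), against 4.96% and 30.4% of 14350 other genes. Below 50% the pooled share was 11.4% for histone genes and 2.77% for 506 other genes. These shares are descriptions, since neighbouring histone genes share peaks.

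The same contrast appeared inside a locus on chromosome IV, and further loci are given beside it. The locus on chromosome IV from 8331044 to 8336340 holds 6 genes, of which his-31 and his-32 in the middle, with unique shares of 83.0% and 85%, had the IDR peaks given above. The flanking pairs his-29/his-30 and his-33/his-34, which code for H2B and H2A, are copies of each other with a unique share of 0 and had no summit in any list. On chromosome V the locus from 16040144 to 16042831 holds his-4, his-3, his-2 and his-1, with unique shares of 58.7% to 79.7%, and each gene had a pooled summit and a summit in each replicate's list. The arrays of 6 and 8 genes on chromosome V that start with his-50 and his-28 had 1 summit among their 14 genes, of 28.9 at his-18 in replicate 2, where the unique share is 15.1%. In the array of 13 genes on chromosome II only his-16, at its edge, had a pooled summit, of 48.3, and that lay 440 bp downstream of its 5' end, past the end of the gene. The array held 1 further pooled summit, of 63.5, between his-9 and his-25 and more than 500 bp from every histone 5' end, with 53.3 in replicate 2 and no summit in replicate 1. Within this array the contrast was not seen: his-16 has a unique share of 10.6%, whereas his-42, at 65.3%, had no summit in any list.

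A pair was called mostly unique when the mean unique share of its genes was at least 50%. All 8 mostly unique histone pairs had a pooled summit between the genes, compared with 31.0% of all 1630 mostly unique divergent protein-coding pairs, and 4 had an IDR one, compared with 9.75%. Among the 295 of these protein-coding pairs spaced as the histone pairs are, 227 to 368 bp apart, the pooled share was 34.6% and the IDR share 9.15%. In each replicate's own list 7 of the 8 histone pairs had a summit between the genes. The pooled one between his-2 and his-1 was weak, at 44.2 and rank 25130. Replicate 1 had none there, and replicate 2 had 21.9, with 21.8 the lowest value of its list. Of the 23 mostly repeated histone pairs 2 had a pooled summit between the genes, his-63/his-64 and his-6/his-5, compared with 4.55% of all 66 mostly repeated protein-coding pairs, and 1 an IDR one, compared with 3.03%. In each of these 2 pairs the partner coding for H4 was above 50%, at 53.5% for his-64 and 52.1% for his-5.

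The stretches between the genes share short words. Over the 250 bases before the 5' end the 72 genes have 51 distinct sequences, and among words of 8 bases on either strand none was held by more of these 51 than ATGTGTCC, or GGACACAT on the other strand. It was present in 27 of the 51 (52.9%), 42 of the 72 genes, and 137 of 19973 protein-coding genes (0.686%). The word GGGACACA, which overlaps it, was held by as many. For comparison, CCAAT was present in 28 of the 51 (54.9%) and in 38.9% of all protein-coding genes, and TATAAA in 32 (62.7%) and 35.2%, each counted on both strands. ATGTGTCC was chosen for being frequent in these promoters, so its count among them is a description.

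ATGTGTCC lay between the genes of 20 of the 31 divergent pairs, including 5 of the 5 with an IDR summit there, 6 of the 10 with a pooled summit and 14 of the 21 without one. It was absent from his-38/his-40 and his-2/his-1, which had a pooled but no IDR summit, and present in his-50/his-49, which had none. The unpaired gene his-37 carries it in the 200 bases before its 5' end, shown because the IDR summit lies within them (chrV:9546905-9547104, plus strand; capitals mark the word):
his-37: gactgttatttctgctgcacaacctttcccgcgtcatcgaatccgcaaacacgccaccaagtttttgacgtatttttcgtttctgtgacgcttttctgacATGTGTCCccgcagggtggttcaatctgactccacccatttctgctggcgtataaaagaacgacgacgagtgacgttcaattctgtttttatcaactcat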

How the data were processed

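HMG-4-eGFP was immunoprecipitated from 2 replicates of 1 group. The authors deposited 4 peak lists on ce11, with a signal value per peak, a −log10 q-value per peak and a summit offset. Per the file headers, each list was made from read alignments and an alignment of a control, not used here. Aligner, caller, versions, the IDR threshold and the treatment of reads that match several places were not given in the sources used here. Neither was the depth, so the precision it gives is unknown. The p-value column the authors deposited holds -1 throughout. Signal values ranked peaks within a list; the −log10 q-values chose no peak. Each replicate and pooled list ends at 30000 peaks, and the lowest deposited −log10 q-value of the pooled list is 0.281, so weak entries are included.

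Genes came from Ensembl release 115, and symbols from RefSeq by gene identifier (72 of 72 matched), since Ensembl gives the 72 genes 50 distinct names. Classes came from RefSeq product names. A summit was counted within 500 bp of a gene's annotated 5' end; genes within 10 kb formed a locus, and 5' ends within 1000 bp facing away formed a divergent pair. A replicate summit matched a pooled one within 100 bp. Intervals are exact binomial (95%). No test across genes was run, and no paired test exists for 1 group. The genes named are those with an IDR summit, the strongest pooled member of each class, each pair and locus with an IDR summit, other genes within 500 bp of such a summit, and the 5 strongest with a summit in 1 replicate's list; the other histone genes named were chosen after their values were seen. Members and lists were chosen with earlier results of these data known. The assignment and the search for unique runs were checked on simulated data. Alternatives varied the window (200 or 1000 bp), the summit (midpoint or interval overlap), the locus gap (5 or 20 kb), the pair distance (500 bp or 2 kb), the part of the list and the replicates. Python 3.11.15, pandas 2.3.3, numpy 2.4.6, scipy 1.17.1, matplotlib 3.10.9 and Biopython 1.88 were used; alignments scored 1 for a match, -1 for a mismatch, -3 to open and -0.5 to extend a gap.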

Additional observations from a re-analysis of the deposited data

How the results depend on the processing

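Of 67 alternative values, 55 stayed within 1.5 times the reported count or, for the median signal value, within 21.7. That is the standard deviation between the replicates' own median values at the genes of the IDR list, not on the pooled scale. Some of the 55 could hardly change. The pair distances and locus gaps tried left the same 62 paired, 67 clustered and 5 single genes. Of the 36 pooled peaks at histone genes, 28 are 440 bp wide with the summit at the middle, so the midpoint repeats it. With the stronger part of the IDR list, by signal value, the counts were 7 histone genes, 5 clustered genes, 4 divergent-pair genes and 5 distinct peaks. With a window of 200 bp, and with the shorter his-72 transcript, single genes fell to 1. With 1 replicate left out, and the strongest 2137 peaks of the other in place of the IDR list, the count of histone genes was 12 each time, that of clustered genes 10, that of divergent-pair genes 9, and distinct peaks ran from 8 to 11. The median signal value ran from 99.4 to 129, but it is then 1 replicate's own value and not on the pooled scale. The share of all protein-coding genes was not computed under these alternatives, so how the histone excess over the background changed is not known. Chosen after seeing the data, dividing at 80% in place of 50% left 15 of 18 mostly unique genes with a pooled summit (83.3%) and 14 of 54 mostly repeated ones (25.9%). Dividing at 20%, or using runs of 100 bases, left 3 of 40 mostly repeated genes (7.50%). No paired analysis was possible because there is 1 group. The depth is unknown, and a missing summit at a repeated gene does not show that HMG-4 was absent there.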

Other observations

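Histone genes outside the his- names were added after their values were seen. Of 11 such genes, for linker histones (hil-1 to hil-8), the H2A variant H2A.Z (htz-1) and the centromeric H3 variants (hcp-3 and cpar-1), 2 had a summit in the IDR list, compared with 4.38% of all protein-coding genes, and 7 in the pooled list, compared with 29.5%. The linker histone gene hil-7 had 96.0 in replicate 1, 129 in replicate 2 and 202 in the pooled list. For hil-3 the values were 104 in replicate 1, 80.3 in replicate 2 and 184 in the pooled list. The pooled value was 70.0 at htz-1, with 50.9 in replicate 1 and 29.0 in replicate 2, and cpar-1 had no summit in any list. All 11 genes are at least 90.3% unique in their 36-base runs.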
